A study of Mus musculus with 8 samples.

Results

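The transcripts described here encode the neuropeptides of enteric nerves: vasoactive intestinal peptide (Vip), substance P and neurokinin A (Tac1), neuropeptide Y (Npy), galanin (Gal), the calcitonin gene-related peptides (Calca and Calcb), enkephalin (Penk), PACAP (Adcyap1), gastrin-releasing peptide (Grp) and the CART peptide (Cartpt). Every probe that the array files name for one of these 10 genes was taken, whatever its signal. That gave 11 probes, 2 for Calca and 1 for each other gene, of 55681 distinct non-control probes. Small intestine was taken from mouse embryos at stage E18.5, and its RNA was hybridised to 8 Agilent single-colour arrays. The 4 mutants carried a floxed Rfx6 gene on both chromosomes and Cre driven by Ngn3 (Rfx6 fl/fl Ngn3-cre). Control replicates 1, 3 and 4 were Rfx6 fl/+ and control replicate 2 was Rfx6 fl/fl. A floxed allele was thus carried by every array's source, and Cre is named for the mutants alone. Ngn3 is a gene of endocrine progenitors in the gut epithelium, and the study asked which genes depend on Rfx6, an endocrine transcription factor. For mutant replicates 2, 3 and 4 the titles name Rfx6 but the description fields name a different RFX gene. Each title carries its own number, but no label says that the arrays came from separate embryos, so the p-values measure the spread between these samples.

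The enteric nervous system lies between the muscle layers and in the submucosa of the gut and arises from neural crest cells, not from the epithelium in which endocrine cells form. Its neurons cut small peptides from larger precursors, store them in dense-core vesicles and release them onto muscle, glands, vessels and other neurons. Tachykinins and gastrin-releasing peptide excite, Vip and PACAP relax muscle and drive secretion, and enkephalins and galanin mostly damp transmitter release. Some of the same genes are also read in other gut cells: Tac1, for example, is transcribed in serotonin-making enterochromaffin cells.

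The probes lie, on mouse build mm9 as the files give it, at chr10:4699238-4699297 (Vip), chr6:7512893-7512952 (Tac1), chr6:49773743-49777505 (Npy), chr19:3411143-3411202 (Gal), chr7:121866534-121866593 (Calcb), chr4:4060724-4060783 (Penk), chr17:93604401-93604460 (Adcyap1) and chr13:100668967-100669956 (Cartpt). The Calca probes lie at chr7:121775204-121775263, against the transcript for the gene-related peptide, and chr7:121776948-121777007, against the transcript for calcitonin. Each probe is 60 bases long, so those of Npy and Cartpt, which span 3763 and 990 genomic bases, cross an intron and match spliced RNA. The sequences of these 2 probes are shown. The Npy probe was well above background on 0 of 8 arrays. The Cartpt probe was well above background on 8 of 8, as was every other tested member probe.
Npy: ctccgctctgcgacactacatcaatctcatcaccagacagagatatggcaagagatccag
Cartpt: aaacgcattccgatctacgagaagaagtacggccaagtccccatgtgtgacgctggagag

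A level here is the log2 of the processed spot intensity minus that of the array's 75th percentile, so 0 is the 75th percentile of the array, and levels of different probes are not set against each other. The 75th percentile lay between 788 and 1027 intensity units, and an array had 59.7 to 69.9% of its probes well above background. Mutant replicate 1 stood apart, with a mean correlation to the remaining arrays of 0.975, where every other array had 0.989 or 0.990. Rfx6 itself read -3.23 ± 0.23 in controls and -3.73 ± 1.20 in mutants (SD, n = 4 each), and the groups differed by -0.50 (SE 0.52, limma adjusted p = 0.828). Which exons are floxed is not stated, so this probe does not check the labels. Of 12 endocrine genes, 8 fell in the mutants: Gip, Ghrl, Sst, Nts, Gcg, Cck, Pyy and Sct, with log2 differences from -8.02 (Gip) to -0.997 (Sct) and limma adjusted p from 6.2e-06 to 0.048. Gip was well above background on 1 of 4 mutant arrays, and its difference was -5.58 with normexp background correction and -5.61 in the deposited table. The Sct call was lost under 13 of 21 other settings, and the Pyy call under 1.

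No enteric neuropeptide passed the test in either direction. Of the 9 member probes that could be tested, 0 were called at a limma adjusted p of 0.05, where 15 of 35472 tested probes (0.0423%) were called in all, 0.0395% lower and 0.00282% higher. At an unadjusted p of 0.05, 1 of the 9, Tac1, was higher in the mutants and 0 were lower, against 2.96% and 2.08% of all tested probes. The difference, mutant minus control, was above 0 for 8 of 9 members with a median of 0.14, beside a median of 0.02 over all tested probes. Without control replicate 3 it was above 0 for 4 of 9 (Tac1, Gal, Grp and Cartpt), with a median of -0.004. The 95% confidence intervals of the 8 members other than Tac1 held 0, and the widest ran from -0.54 to 0.54 (Penk). Differences inside these intervals could not be told from 0 with 4 arrays a group.

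**Figure D1:**
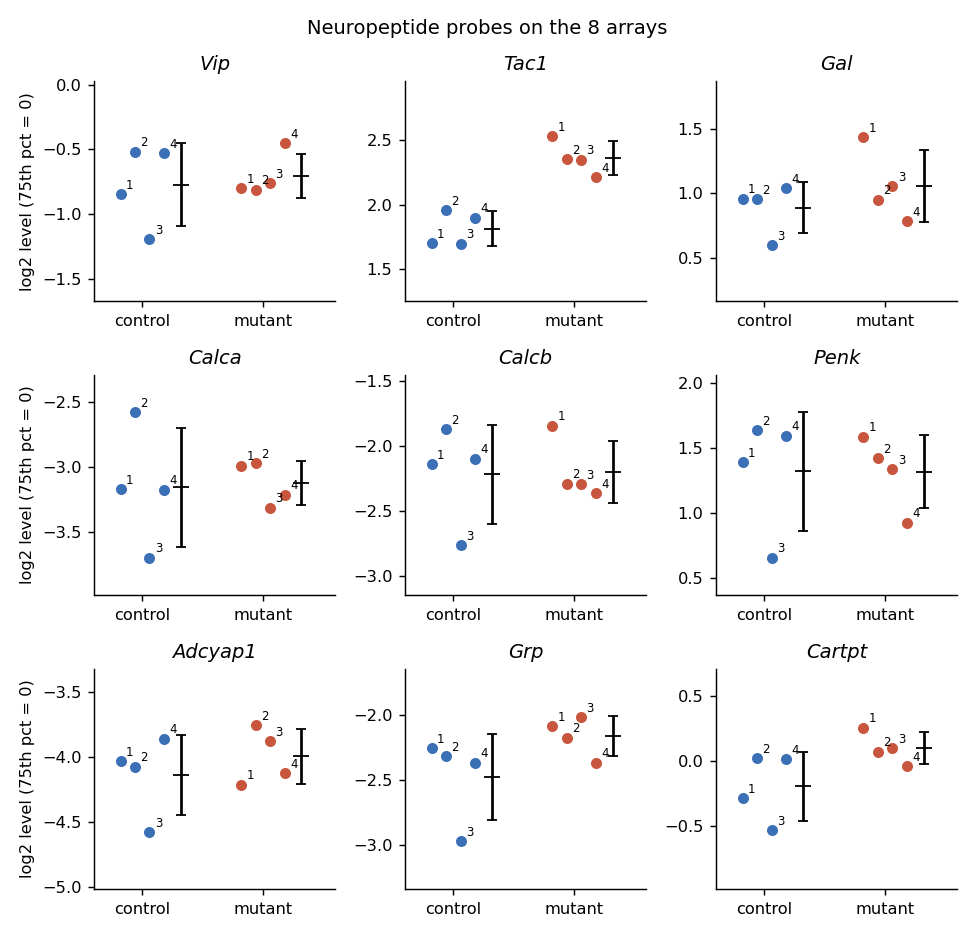
Level of each tested neuropeptide probe (log2, the array's 75th percentile at 0, y axis) on the 4 control and 4 mutant arrays, numbered by replicate, with mean and SD beside the points. The groups overlap for every member shown except Tac1, whose 4 mutants (2.21 to 2.53) lie above the 4 controls (1.70 to 1.96), and control replicate 3 is the lowest control throughout.

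Among the excitatory peptides, Tac1 encodes the precursor of substance P and neurokinin A, which contract gut muscle. Its level was 1.70, 1.96, 1.70 and 1.90 in control replicates 1 to 4 and 2.53, 2.35, 2.34 and 2.21 in mutant replicates 1 to 4. The groups did not overlap, and the lowest mutant stood above the highest control. The difference was 0.54 (SE 0.11, 95% confidence interval 0.30 to 0.79), or 1.46-fold (1.23 to 1.73), but it missed the threshold over all tested probes (limma adjusted p = 0.378, from 0.131 to 1.00 under the other settings). Groups that do not overlap were found for 4.38% of all tested probes, 2.81% with the mutants higher. Within slide row 1 the Tac1 difference was 0.61 and within row 2 it was 0.48, with 2 arrays of each group in each row.

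Tph1, the serotonin-synthesis enzyme of enterochromaffin cells, also had all 4 mutants (0.22 to 0.53) above all 4 controls (-0.43 to -0.01), with a difference of 0.60 (SE 0.12, limma adjusted p = 0.357). Pancreatic acinar transcripts also read higher: all 6 tested of 8 listed genes had positive differences, with 0 called by limma. Cela2a, not well above background in any control, was tested only through the mutants, where it was high. Of the other 5 genes 4 had an unadjusted p under 0.05, and their mean level ran from -3.27 to -1.76 in controls and from -1.42 to 0.64 in mutants. The groups were apart for Amy2a5 (controls -6.64 to -1.88, with 3 of 4 well above background, and mutants 0.16 to 3.29) and Cel (controls -2.34 to -2.11, mutants -1.81 to -0.50). Of all tested probes, 2.96% were higher in the mutants at an unadjusted limma p under 0.05, and 2.81% had groups apart with mutants higher. Amy2a5 was called with the slide row as a block (limma adjusted p = 0.0391), with normexp (0.0336) and with the neuron mean as centre (0.0223), from 0.0223 to 0.553 over its other settings. The Cela2a difference, against controls near background, was 3.95, but 1.11 with normexp and 1.08 in the deposited table. It passed the threshold under 3 other settings. Because it entered the test only through the mutants, those calls are not read as a result. Pnlip and Prss2 were too dim to test. The part of either cell type in the Tac1 difference was not tested.

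Grp encodes gastrin-releasing peptide, which acts on smooth muscle and on gastrin cells. Its level was -2.25, -2.32, -2.97 and -2.37 in the controls and -2.09, -2.18, -2.02 and -2.37 in the mutants. Control replicate 3 stood below all the others, and the highest controls overlapped the lowest mutant. The difference was 0.32 (SE 0.17, limma adjusted p = 0.828) and was 0.15 without control replicate 3.

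Among the relaxant and secretory peptides, Vip is the main inhibitory peptide of enteric motor neurons. Its level was -0.85, -0.52, -1.19 and -0.53 in the controls and -0.80, -0.81, -0.76 and -0.45 in the mutants. The mutants lay within the range of the controls but for replicate 4, the highest array. The difference was 0.06 (SE 0.17, 95% confidence interval -0.32 to 0.45, limma adjusted p = 0.925), and it was -0.08 without control replicate 3.

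Adcyap1 encodes PACAP, a relative of Vip that shares its receptors. It read -4.03, -4.08, -4.58 and -3.86 in the controls and -4.21, -3.76, -3.88 and -4.13 in the mutants. The groups overlapped, with a difference of 0.14 (SE 0.17, 95% confidence interval -0.25 to 0.54, limma adjusted p = 0.844). Without control replicate 3 it was -0.004.

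The calcitonin gene-related peptides dilate vessels and mark sensory and some intrinsic enteric neurons. The Calca probe for this peptide read -3.17, -2.57, -3.70 and -3.17 in the controls and -2.99, -2.97, -3.31 and -3.21 in the mutants. The mutants lay inside the range of the controls, with a difference of 0.03 (SE 0.22, 95% confidence interval -0.47 to 0.53, limma adjusted p = 0.974). The Calca probe for calcitonin, the thyroid product of the same gene by alternative splicing, was well above background on control replicate 1 only and was not tested.

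Calcb, which encodes the second form of the peptide, read -2.14, -1.87, -2.77 and -2.10 in the controls and -1.84, -2.29, -2.29 and -2.36 in the mutants. Mutant replicates 2, 3 and 4 lay close together, and replicate 1 stood higher. The Calcb difference was 0.02 (SE 0.20, 95% confidence interval -0.44 to 0.49, limma adjusted p = 0.981). Both differences changed sign under several other settings, and without control replicate 3 they were -0.15 (Calca) and -0.16 (Calcb).

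Among the peptides that damp transmission, Penk encodes the enkephalins, which act on opioid receptors. It read 1.39, 1.64, 0.65 and 1.60 in the controls and 1.59, 1.42, 1.34 and 0.92 in the mutants. Control replicate 3 and mutant replicate 4 were the low arrays, and the means were almost the same, with a difference of -0.002 (SE 0.24, limma adjusted p = 0.999). Without control replicate 3 the Penk difference was -0.22, and without mutant replicate 4 it was 0.13.

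Gal encodes galanin, an inhibitory peptide of enteric and extrinsic nerves. It read 0.96, 0.96, 0.60 and 1.04 in the controls and 1.44, 0.95, 1.06 and 0.79 in the mutants. Mutant replicate 1 was the highest array, and the groups overlapped, with a difference of 0.17 (SE 0.16, 95% confidence interval -0.20 to 0.53, limma adjusted p = 0.828).

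Cartpt encodes the precursor of the CART peptide, which occurs in myenteric neurons. It read -0.29, 0.02, -0.53 and 0.01 in the controls and 0.26, 0.07, 0.10 and -0.04 in the mutants. The lowest mutant lay among the controls, so the groups overlapped. The difference was 0.29 (SE 0.14, 95% confidence interval -0.03 to 0.62, limma adjusted p = 0.828) and was 0.18 without control replicate 3. Npy, the peptide of sympathetic and some enteric neurons, was not well above background on any array (-7.94 to -6.40 in controls, -8.30 to -6.19 in mutants), so it has only a bound and was not tested.

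**Figure D2:**
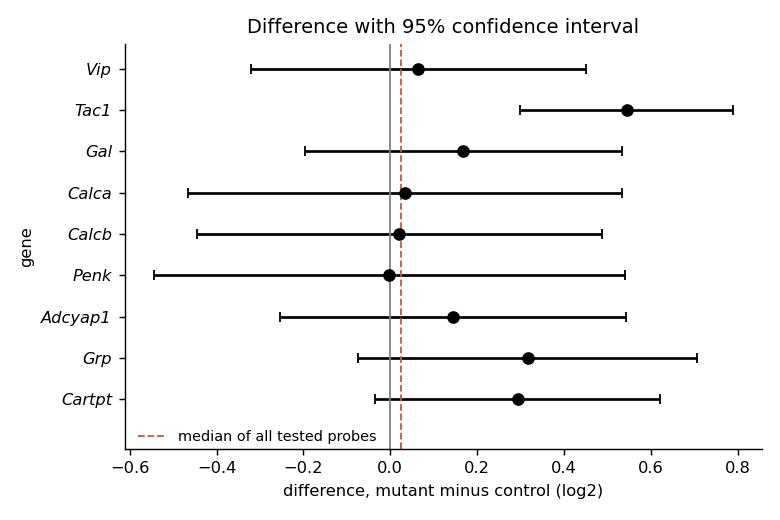
Difference between groups (mutant minus control, log2, x axis) for each tested neuropeptide, with its 95% confidence interval from limma, the grey line at 0 and the dashed line at the median of all tested probes. The interval of Tac1 (0.30 to 0.79) lies above 0 before adjustment for multiple tests, and the other 8 intervals hold 0.

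The spread among controls was largely shared by the members. Control replicate 3 was the lowest control for 9 of 9 tested members, with a median of -0.59 relative to the mean of the other controls, while it was lowest for 26.5% of all probes. The same array was lowest for 18 of 19 tested neuron genes (Elavl4, Ret, Uchl1 and others, median -0.70), 6 of 7 glial genes (median -0.31) and 9 of 9 smooth muscle and interstitial genes (median -0.55). It was lowest for 1 of 8 epithelial genes, whose median was 0.07. Other markers were high on it: it was the highest control for 3 of 4 blood genes (median 0.76) and 4 of 6 acinar genes (median 0.58). It was also the highest control for 7 of 12 endocrine genes (median 0.23). The part of these cell types in the low neuropeptide levels of control replicate 3 was not tested. In RNA from bulk intestine, fewer cells of a type and less RNA per cell cannot be told apart.

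The mean of the neuron list was 0.11, 0.30, -0.44 and 0.22 in the controls and 0.13, 0.02, 0.00 and -0.05 in the mutants. All 4 mutants lay inside the range of the controls, and the difference was -0.02 (exact permutation test, two-sided, p = 1.00, n = 4 each, smallest possible p 0.0286). Without control replicate 3 it was -0.18 (exact permutation p = 0.0857, n = 3 and 4), and 1 of 19 neuron genes had a positive difference. Of the 19 tested neuron genes 0 were called, with 10 positive and 9 negative differences on all 8 arrays, none had an unadjusted p under 0.05, and Chrna3 was too dim to test. The muscle list was 3.97, 4.06, 3.53 and 4.02 in the controls and 4.32, 4.06, 4.00 and 3.92 in the mutants, with 0 of 9 genes called, 1 at an unadjusted limma p under 0.05 (Kit) and all 9 differences above 0 (median 0.20). Without control replicate 3 the difference of the muscle list means was 0.06, against 0.19 with it. The part of muscle content in the members' small positive differences was not tested.

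**Figure D3:**
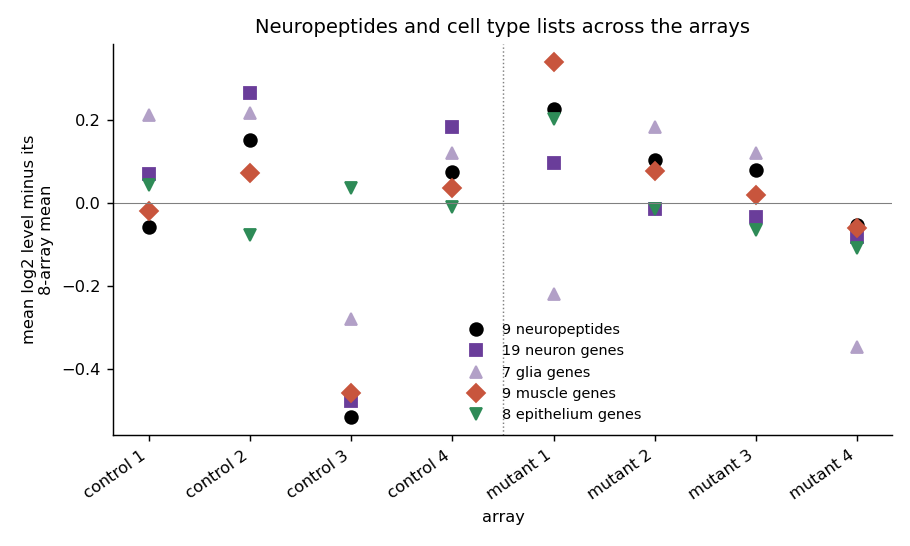
Mean level of the 9 tested neuropeptides and of the neuron, glia, muscle and epithelium lists on each array (log2, each list centred on its own mean over the 8 arrays, y axis). Control replicate 3 is low for the neuropeptides, neurons, glia and muscle and not for epithelium.

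Members differed in how closely they followed the neuron list across the 8 arrays. Penk followed it closely (Pearson r = 0.93, exact permutation p = 0.000124, 0.000992 adjusted over 8 relations, Spearman rho = 0.98, adjusted p 0.00317), and r was 0.83 without control replicates 2 and 3, the arrays farthest from the median. For Calcb r was 0.93 (exact permutation p = 0.00191, adjusted 0.00764), rho was 0.93 (adjusted p 0.00893) and r without those arrays was 0.74. For Calca r was 0.86 (exact permutation p = 0.0128, adjusted 0.0341) and rho 0.76 (adjusted p 0.098), but r was 0.23 without those arrays, so that relation rests on them. Each slide row held 4 arrays, too few for a value within rows.

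The other 5 relations missed the threshold after adjustment, with r from 0.65 to 0.74 and adjusted exact permutation p from 0.0799 (Vip) to 0.107. Their rho ran from 0.26 to 0.55. Without the same arrays r was -0.06 for Vip, -0.19 for Grp, 0.02 for Cartpt, 0.006 for Adcyap1 and 0.51 for Gal, so that the first 4 of these pooled relations rested on those arrays. For Tac1 the groups form separate clusters of 4 arrays, so no pooled value was given.

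With group means removed, a choice made after seeing the data, all 9 relations were also computed, with exact permutation inside each group (576 orders). Tac1 then gave r = 0.68 (exact permutation p = 0.0156, adjusted over 9 relations 0.0313), and r was 0.98 without control replicate 3. Cartpt gave 0.92 (exact permutation p = 0.00347, adjusted 0.0104) and 0.94 without that array, where its pooled r had been 0.68. Grp gave 0.89 (exact permutation p = 0.0816, adjusted 0.105), against a pooled r of 0.70, but 0.24 without that array. Within groups, then, Cartpt followed the neuron list with or without control replicate 3, and Tac1 followed it less closely with that array. Relations to the other lists were not computed, and the muscle list was also low on control replicate 3. Whether any member followed the neuron list more closely than the muscle list was therefore not tested. Tac1 read 1.70 in control replicates 1 and 3, where the neuron mean was 0.11 and -0.44. The values without control replicate 3 were not tested.

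The within-group value was 0.93 for Calcb and for Penk (exact permutation, adjusted p 0.00781 each), and 0.72 for Gal (adjusted 0.0313). These were 0.88, 0.82 and 0.67 without control replicate 3. Calca (0.86), Vip (0.75) and Adcyap1 (0.69) missed the threshold, with adjusted exact permutation p of 0.0807, 0.113 and 0.177. Without control replicate 3 their r was 0.73, 0.09 and -0.26, so the Vip and Adcyap1 values rested on that array.

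**Figure D4:**
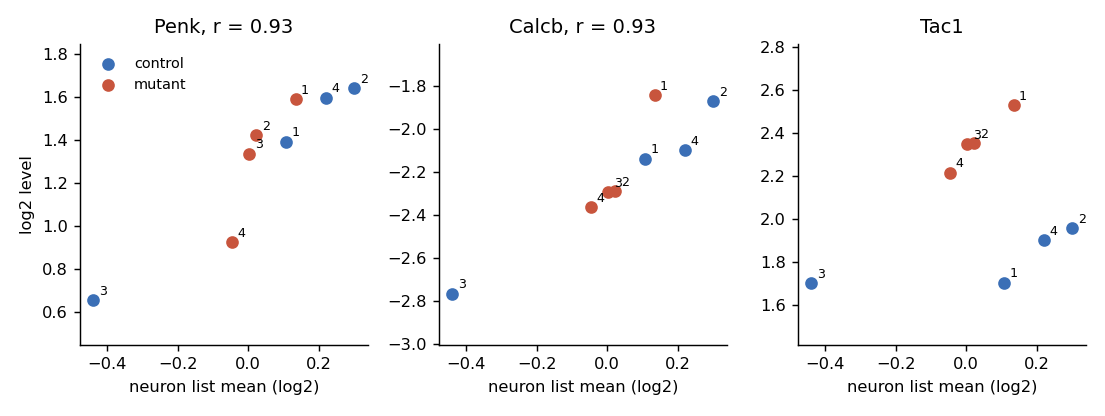
Level of Penk, Calcb and Tac1 (log2, y axis) against the mean of 19 neuron genes (log2, x axis), a point per array numbered by replicate. Penk and Calcb rise with the neuron mean across both groups (r = 0.93 each), while Tac1 forms separate control (1.70 to 1.96) and mutant (2.21 to 2.53) clusters.

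Taking each array's neuron mean away from its neuropeptide levels reduced the spread among controls for 8 of 9 members, and the median control SD went from 0.32 to 0.13. Tac1 was the exception, with a control SD of 0.13 before and 0.25 after, and control replicate 3 was then its highest control. On this scale Tac1 read 1.59, 1.66, 2.14 and 1.68 in the controls and 2.39, 2.33, 2.34 and 2.26 in the mutants. The groups again did not overlap.

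On the same scale Cartpt read -0.39, -0.28, -0.09 and -0.21 in the controls and 0.12, 0.05, 0.10 and 0.01 in the mutants. Grp read -2.36, -2.62, -2.54 and -2.59 in the controls and -2.22, -2.20, -2.02 and -2.32 in the mutants. The neuron mean itself was 0.11 to 0.30 in the controls other than replicate 3 and -0.05 to 0.13 in the mutants. No other cell type list, such as muscle, was tried as the centre. For Cartpt and Grp every mutant was above every control once levels were taken relative to the neuron list. Thus 3 of 9 members were apart with mutants higher, where 0.519% of all tested probes were. With mutants lower it was 0 of 9 members and 0.386% of all tested probes. Before this centring 1 of 9 members was apart with mutants higher, against 2.81% of all tested probes. The centre takes away spread that most members share with the neuron list and adds spread to probes that do not share it. The share over all probes is therefore no fair background for the centred count. The differences in the fit with this centring were 0.56 (SE 0.20) for Tac1, 0.34 (SE 0.19) for Grp and 0.31 (SE 0.19) for Cartpt, and none passed the threshold (limma adjusted p = 1.00 for each, unadjusted p 0.0151, 0.105 and 0.123). In that fit 0 members were called, against 0.0592% of all tested probes.

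**Figure D5:**
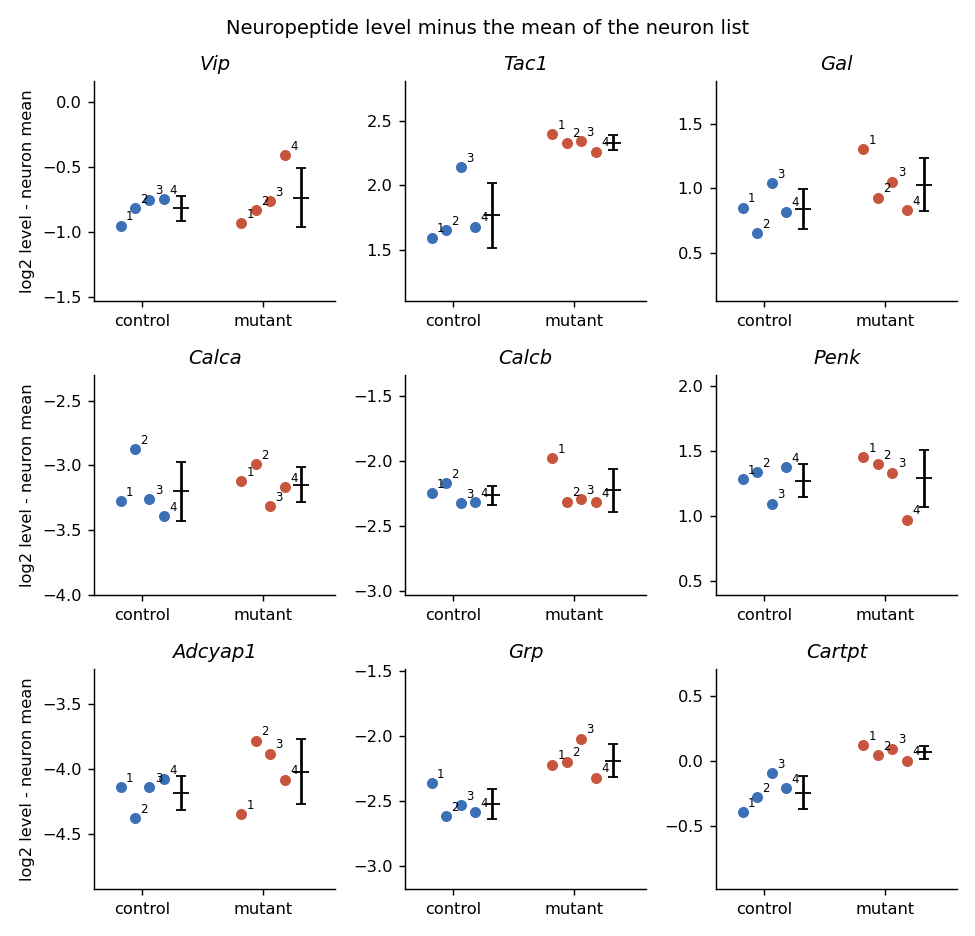
Neuropeptide level minus the array's neuron list mean (log2, y axis) on each control and mutant array, numbered by replicate, with mean and SD beside the points. The mutants of Tac1, Grp and Cartpt lie above all controls on this scale, and the 6 other members overlap.

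No tested gene that receives, cuts or degrades these peptides was called. Of 22 receptor genes, 16 could be tested, 0 were called by limma, 0 had an unadjusted p under 0.05, 8 differences were positive and 8 negative, and their median was 0.02. The receptors not tested were Tacr3, Npy5r, Galr2, Oprd1, Oprk1 and Nmbr, whose probes were too dim. For Vip and PACAP, the receptor differences were 0.16 (Vipr1, SE 0.13), 0.06 (Vipr2, SE 0.09) and 0.08 (Adcyap1r1, SE 0.20). The receptors of the tachykinins gave -0.05 for Tacr1 (SE 0.12) and -0.17 for Tacr2 (SE 0.14).

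The receptors for neuropeptide Y and its relatives gave 0.22 (Npy1r, SE 0.11), -0.04 (Npy2r, SE 0.31) and 0.32 (Npy4r, named Ppyr1 on the array, SE 0.21). Those for galanin gave -0.08 (Galr1, SE 0.13) and 0.05 (Galr3, SE 0.11), and the mu opioid receptor Oprm1 gave -0.17 (SE 0.13). Npy2r, Npy4r and Oprm1 each had 2 probes, of which 1 was tested and the other was too dim. The gene-related peptide receptor is built from Calcrl (-0.24, SE 0.29) and Ramp1 (0.08, SE 0.14), and its related subunits gave -0.002 (Ramp2, SE 0.12) and 0.11 (Ramp3, SE 0.23). For none of these genes were the groups apart.

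Grpr, the receptor of gastrin-releasing peptide, was the 1 receptor with groups apart. It read -3.11, -3.18, -3.47 and -3.59 in the controls and -4.60, -3.69, -3.59 and -3.59 in the mutants. All 4 mutants were below all 4 controls, by a margin that did not show at 2 decimals, and mutant replicate 1 was far below the rest. The difference was -0.53 (SE 0.24, limma adjusted p = 0.828), where 1.56% of all tested probes had groups apart with mutants lower. Without mutant replicate 1 it was -0.29.

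Of 13 related peptide genes 8 were tested and 0 called by limma, with 1 (Pnoc, 0.87, SE 0.31) at an unadjusted p under 0.05, and Tac2, Tac4, Ppy, Adm2 and Nms were too dim. Of 8 genes for precursor processing, 0 were called by limma and 1 (Pam) had an unadjusted p under 0.05. The convertases Pcsk1 and Pcsk2, which cut neuropeptide precursors, gave 0.11 (SE 0.12) and -0.08 (SE 0.12), and the carboxypeptidase Cpe gave -0.005 (SE 0.19). Pam, the enzyme that amidates peptide ends such as those of Vip and substance P, was chosen here after its values were seen. It read -0.88, -0.41, -0.73 and -0.58 in the controls and 0.73, 0.71, 0.72 and -0.70 in the mutants, so that 3 mutants were high and replicate 4 lay among the controls. Its difference was 1.02 (SE 0.32, limma adjusted p = 0.828).

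Of 7 peptide-degrading enzymes 0 were called by limma and 0 had an unadjusted p under 0.05. Thop1, an oligopeptidase, read 0.14, 0.37, 0.37 and 0.35 in the controls and 0.66, 0.46, 0.50 and 0.44 in the mutants. Every mutant was higher, by 0.21 on average (SE 0.10, limma adjusted p = 0.828), where 2.81% of all tested probes had groups apart with mutants higher. Of 10 transmitter genes 8 were tested and 0 called, among them Chat for acetylcholine (-0.10, SE 0.23) and Nos1 for nitric oxide (-0.14, SE 0.31), and Gad1 and Gad2 were too dim. Of 7 tested glial genes, 8 epithelial genes and 4 tested blood genes, 0 were called by limma in each list, and 1 glial gene (Fabp7, -0.48, SE 0.20) had an unadjusted p under 0.05.

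The 250 bases before the annotated start were read from RefSeq for 7 of the 10 genes (build GRCm38.p6). Upstream sequences of Tac1, Vip and Cartpt are shown as examples. The cyclic AMP response element (CRE) is the site through which CREB acts at the Vip gene. Cartpt carries it whole, and Tac1 and Vip carry its shorter form, as do Adcyap1 and Calca, which are not shown. Capitals mark matches, on either strand, to the CRE (TGACGTCA), its half-site (TGACG, or CGTCA on the other strand, which also lies inside the whole element) and the TATA sequence (TATAAA). Tac1 is at chr6:7554811-7555060 on the plus strand, Vip at chr10:5638968-5639217 on the plus strand and Cartpt at chr13:99900684-99900933 on the minus strand.
Tac1: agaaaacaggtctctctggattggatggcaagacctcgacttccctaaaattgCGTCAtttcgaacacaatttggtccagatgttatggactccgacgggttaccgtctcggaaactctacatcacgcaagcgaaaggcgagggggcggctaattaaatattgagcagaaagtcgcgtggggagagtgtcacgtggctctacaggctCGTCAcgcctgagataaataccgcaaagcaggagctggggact
Vip: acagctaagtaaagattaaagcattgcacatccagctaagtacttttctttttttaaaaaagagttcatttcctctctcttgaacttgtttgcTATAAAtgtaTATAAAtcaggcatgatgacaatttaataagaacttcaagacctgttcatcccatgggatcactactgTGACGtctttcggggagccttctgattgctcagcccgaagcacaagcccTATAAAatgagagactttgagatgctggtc
Cartpt: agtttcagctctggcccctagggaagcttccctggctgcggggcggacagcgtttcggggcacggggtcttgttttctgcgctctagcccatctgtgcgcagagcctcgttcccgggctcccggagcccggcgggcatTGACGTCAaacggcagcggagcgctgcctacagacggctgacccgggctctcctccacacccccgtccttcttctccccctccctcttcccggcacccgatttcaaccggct

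The CRE half-site was found in 5 of 7 members (Adcyap1, Calca, Cartpt, Tac1 and Vip), and in 17.8% of 32851 promoters of the same length. Members were counted by gene, with a match in any listed promoter of the gene, and the shares were counted by promoter. The whole CRE was found in 1 of 7, Cartpt, starting at base -112 from the gene start, and in 1.55% of promoters. In Tac1 the half-site began at -197 and -43, and in Vip at -79. The TATA sequence was found in 2 of 7 (Adcyap1 and Vip, where a match began at -30), and in 12.4% of promoters. GTTGCC, the half-site of the X-box to which RFX factors bind, was found in 0 of 7 members and in 10.4% of promoters. These matches describe letters in this window only, and no link between them and the levels on any array was tested.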

How the data were processed

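TRI-reagent was used to extract RNA, of which 100 ng was labelled with a single dye, per the labels' protocols. The slide was read with Agilent Feature Extraction 10.10.1.1, per the submitters' processing notes, and the array design 028005 is annotated on mm9, per the file headers. The authors deposited linear spot intensity values, background-corrected within each array and not normalised between arrays, per the file headers. A second deposited table of intensity values, whose scale was matched to the scanner files by rank (correlation above 0.9999 on each array), served as an alternative: its column medians were all 123, and its processing is not given in the sources used here.

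From these, log2 of the processed intensity minus the log2 75th percentile of the array was computed over 59305 non-control spots, outlier spots were left out, and spots of a probe were averaged. A probe was tested where it was well above background on at least 4 of 8 arrays (35472 probes, 20209 not tested). For 26 tested probes, none of a neuropeptide, an array was missing because its spots were outliers. The test was limma 3.58.1 in R 4.3.3 (lmFit, eBayes), two-sided, with Benjamini-Hochberg adjustment over all tested probes and a threshold of 0.05. Single values were compared by exact permutation over 70 splits in R, and relations to the neuron list by exact permutation of the array order in Python 3.11.15. Where a listed gene had several probes, the probe of highest mean level was used. The number of arrays limits the precision.

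Named were all 10 members with every probe, Rfx6, all tested receptors, and any listed gene that was called or whose groups did not overlap. The members and lists were chosen with earlier results of these data known. All arrays shared 1 slide and 1 scan. Same-numbered arrays did not deviate together (correlations -0.09 to 0.10), so numbers were not treated as pairs. Settings tried were other background corrections, centrings, dim-probe filters, probe choices, blocks, weights and variance priors, and leaving out arrays. The fit was tested on simulated data.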

Additional observations from a re-analysis of the deposited data

Results flagged for a closer look

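Of 80 groups of 4 arrays examined, 8 had an array that stood apart from the other 3 by Dixon's limit, where about 4 are expected, since chance gives about 1 in 20. Mutant replicate 1 gave 4 of the 8. Among the neuropeptides, Vip in mutant replicate 4 read -0.45 (others -0.81 to -0.76), Calcb in mutant replicate 1 read -1.84 (others -2.36 to -2.29) and Grp in control replicate 3 read -2.97 (others -2.37 to -2.25). In the genes around them, Grpr in mutant replicate 1 read -4.60 (others -3.69 to -3.59), Thop1 in control replicate 1 read 0.14 (others 0.35 to 0.37) and Pam in mutant replicate 4 read -0.70 (others 0.71 to 0.73). Cck in mutant replicate 1 read 2.16 (others 1.80 to 1.83), and Rfx6 in mutant replicate 1 read -5.52 (others -3.37 to -3.02).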

How the results depend on the processing

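Under each of 21 other settings 0 member probes were called, and Tac1, Grp and Cartpt kept a positive difference in all of them (0.45 to 0.59, 0.13 to 0.39 and 0.13 to 0.37). The number of all probes called, 15, was 24 with normexp background correction, 39 with array weights and 23 with trend and robust variance priors. With the replicate number as a block it was 7, the Tac1 difference was 0.54 (limma adjusted p = 0.871), 0 members were called, and the Pyy call was lost (limma adjusted p = 0.0949). Leaving out 1 array gave 9 to 20 called probes, with 9 without control replicate 2 and 9 without mutant replicate 3. The neuron list difference, near 0, was 0.0027 with normexp, from -0.181 to 0.0662 with 1 array left out, and -0.216 without both control replicate 3 and mutant replicate 1, a setting chosen after seeing the data.

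Members whose differences were near 0 changed sign. Penk was 0.013 with the array median and 0.016 with the neuron mean as centre, Calca -0.027 and Calcb -0.00071 in the deposited table, and Vip -0.023, Calca -0.034 and Calcb -0.134 with array weights. With 1 array or both named arrays left out, ranges were -0.0757 to 0.149 (Vip), -0.0537 to 0.258 (Gal), -0.192 to 0.227 (Calca), -0.28 to 0.138 (Calcb), -0.315 to 0.129 (Penk) and -0.00387 to 0.236 (Adcyap1). Without both arrays Vip was -0.045. The median member difference was 0.14, and -0.0039 without control replicate 3. Except where fewer arrays were used, the cause was not tested. Signal near background limits Npy and the calcitonin probe of Calca, which have no tested difference.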
